A study of Drosophila melanogaster with 24 samples.

Results

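The mir-275 and mir-305 hairpins of Drosophila melanogaster lie side by side, and their 4 mature arms were followed at 2 ages in body tissue and in the blood-like fluid that bathes the organs, the hemolymph. These are 4 of the 466 mature microRNA names in the deposited count table, of which 329 had at least 1 count, and they were taken by hairpin name. The table lists them as dme-miR-275-3p, dme-miR-275-5p, dme-miR-305-5p and dme-miR-305-3p, and the species prefix is left out below. The pair was selected on the measured age differences of miR-275-3p, whose counts were lower in old than in young body and higher in old than in young hemolymph. Those age differences are therefore given here as a description, with no test, for all 4 arms.

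A microRNA hairpin is cut into a duplex of a 5p and a 3p arm, and usually one arm is kept in an Argonaute protein, where it guides the repression of messenger RNAs, while the other is degraded. Neighbouring hairpins are often cut from a shared primary transcript, but the amounts of their mature arms are also set by processing, loading and decay. In flies, miR-305 is known from intestinal stem cells, where it tunes Notch and insulin signalling, and miR-275 is known from mosquitoes, where it is needed for digestion of the blood meal.

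The flies were all labelled male and fell into 4 groups: old hemolymph (25 days, n = 8), young hemolymph (2 days, n = 4), old body tissue (25 days, n = 8) and young body tissue (2 days, n = 4). No strain, diet or treatment is named in the labels. Hemolymph RNA was extracted with the miRNeasy version for serum or plasma and body RNA with the general miRNeasy kit, so kit and compartment cannot be told apart. Nothing in the labels says whether libraries came from separate flies or pools, so p-values measure the spread between libraries, which may be technical. The labels give the old libraries numbered 5 to 8 another description letter (R in place of O) without saying what it means, and both sets were kept together.

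Total microRNA counts per library ran from 52792 to 120876 in old hemolymph, 56010 to 275974 in young hemolymph, 136692 to 230282 in old body and 180182 to 242935 in young body. Of the muscle markers, miR-133-3p with miR-1-3p took 0.00267% to 0.0393% of counts in hemolymph and 0.153% to 0.447% in body. Although the flies are labelled male, the ovary microRNAs miR-318-3p, miR-989-3p and miR-994-5p summed to 1.98% to 3.58% of counts in old body. In young body libraries 1 to 4 the same sum was 0.255%, 1.50%, 8.03% and 6.91%, so libraries 1 and 2 stand apart from 3 and 4. In young hemolymph it was 0.00236%, 0.00507%, 0.121% and 0.215%, with the same split, and in old hemolymph 0.0227% to 2.02%, the highest in library 4. Within the ovary sum, the split of the young libraries was carried by miR-318-3p and miR-994-5p. miR-989-3p did not follow it, with 2418, 5322, 3542 and 4236 CPM in young body libraries 1 to 4. Its counts in young hemolymph libraries 1 to 4 were 2, 2, 0 and 0. Where leaving out young libraries 1 and 2, or 3 and 4, turned the sign or the call of a difference given here for the 4 arms, or moved it by over 1.5 times, the values without them stand beside it.

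In the BDGP6 annotation (dm6 coordinates, the build named by the submitters' processing notes), mir-275 occupies chromosome 2L, 7425795 to 7425892, and mir-305 2L, 7425972 to 7426044, both on the plus strand. The hairpins are 98 and 73 bases long and are separated by 79 bases. The mir-275 hairpin lies inside an exon of the long noncoding RNA CR43857 (2L, 7425172 to 7425932), which ends before the mir-305 hairpin begins. The arms of mir-275 span 7425814 to 7425836 (5p) and 7425853 to 7425875 (3p), and those of mir-305 span 7425979 to 7426001 (5p) and 7426017 to 7426039 (3p), 23 bases each.

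**Figure D1:**
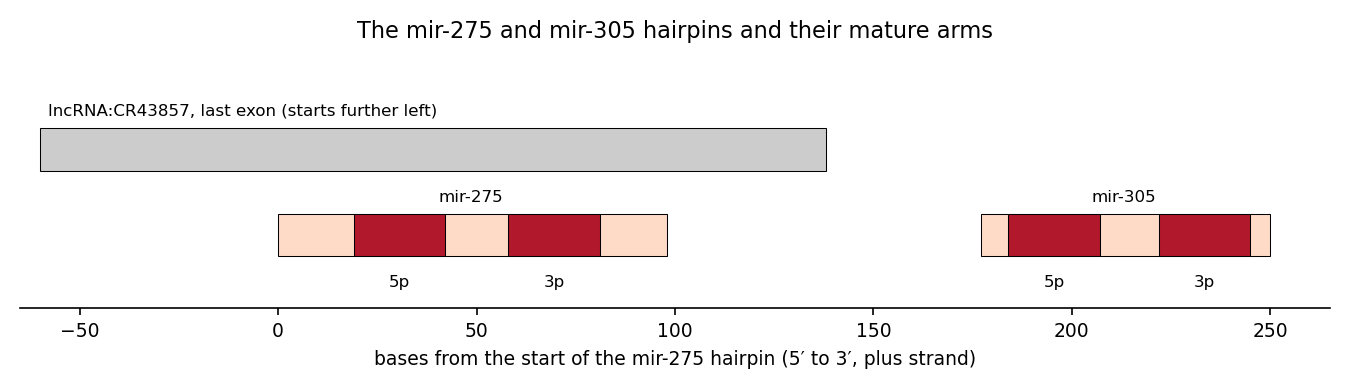
Map of the locus, with distance in bases from the start of the mir-275 hairpin on the x axis. The 5p and 3p arms (red) sit within the hairpins (pale), 79 bases separate the hairpins, and the annotated exon of lncRNA:CR43857 (grey) covers mir-275 but not mir-305.

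The 4 arms together took 4.37% ± 0.279 of microRNA counts in old hemolymph (SD, n = 8), 2.28% ± 0.284 in young hemolymph (n = 4), 1.85% ± 0.0988 in old body (n = 8) and 2.23% ± 0.150 in young body (n = 4). By mean CPM (counts scaled to a library total of 1000000 microRNA counts) miR-275-3p ranked 9 in old hemolymph, against rank 43 in old body. It ranked 16 in young hemolymph and 17 in young body. The ranks of miR-305-3p ran from 12 in old hemolymph to 21 in young hemolymph, so this arm stayed among the abundant microRNAs in every group.

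Beginning with the arm that led to the choice, miR-275-3p had a lowest, median and highest level of 19007, 22763 and 24659 CPM in old hemolymph. In young hemolymph libraries 1 to 4 it had 7343, 11258, 12891 and 12060 CPM. In old body the lowest, median and highest were 1522, 1941 and 2630 CPM, and in young body libraries 1 to 4 it had 12157, 9169, 6148 and 7241 CPM. Every old hemolymph library was above every other library of the series, and every old body library was below every other. Old and young libraries did not overlap for 29.1% of the microRNAs tested in hemolymph and for 30.4% in body, from which nothing is read here, as this contrast made the choice. The young groups overlapped, so young hemolymph and young body cannot be put in order.

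As a description, miR-275-3p was at a log2 fold change of 0.83 ± 0.16 (SE) in old against young hemolymph and -2.25 ± 0.21 in old against young body. The body value was -1.73 without young libraries 1 and 2 and -2.58 without 3 and 4. On the CPM means these are 2.07 times as much in old as in young hemolymph, and 0.224 times as much in old as in young body. The age difference in hemolymph minus that in body was 3.10 ± 0.34 on the log2 scale, rank 5 from the top of 124 microRNAs. Without young libraries 1 and 2 that value was 2.54, and without 3 and 4 it was 3.65. As the pair was chosen for the opposite age differences of this arm, nothing is read from the rank.

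Which compartment holds more of these microRNAs was tested on a contrast that the choice did not use. Hemolymph was set against body with old and young libraries weighted by their number (8 and 4 in each compartment). These weights make the contrast independent of the age differences only if old and young libraries spread alike. For miR-275-3p young libraries spread more, with a CV of 22.6% against 7.90% in hemolymph and 30.3% against 17.4% in body. The independence is therefore approximate. By edgeR's quasi-likelihood test with Benjamini-Hochberg adjustment over all 124 microRNAs, both arms of mir-275 were higher in hemolymph and neither arm of mir-305 passed. miR-275-3p was higher by a log2 fold change of 2.40 ± 0.16 (SE, adjusted p = 8.37e-13) and miR-275-5p by 2.12 ± 0.17 (adjusted p = 3.33e-11). Differences between compartments were the rule: 82.3% of the microRNAs tested passed in either direction, and 37.1% passed as higher in hemolymph. Of the 4 arms, 2 passed, both as higher in hemolymph, and with so few members this count is not read against those shares. The sizes put miR-275-3p at rank 7 and miR-275-5p at rank 11 from the top of 124.

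For miR-275-3p most of that difference came from the old flies. Its log2 fold change, hemolymph against body, was 3.44 ± 0.21 in old flies and 0.33 ± 0.27 in young flies. These single-age values follow in part from the choice and were not tested. Under RLE scaling the young value was -0.04 and under upper-quartile scaling 0.99. Without young libraries 1 and 2 it was 0.85, and without 3 and 4 it was -0.14.

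The other arm of the same hairpin, miR-275-5p, is the scarce one, with 20 to 114 counts per library. Its lowest, median and highest level was 637, 837 and 1348 CPM in old hemolymph, against 129, 156 and 211 CPM in old body. Young hemolymph libraries 1 to 4 held 483, 409, 928 and 722 CPM, against 155, 166, 157 and 300.5 CPM in young body. At both ages every hemolymph library was above every body library, as were 27.4% of the microRNAs tested in old flies and 24.2% in young flies. The difference, hemolymph against body, was 2.28 ± 0.21 in old flies (log2, adjusted p = 6.3e-10) and 1.78 ± 0.29 in young flies (adjusted p = 8.09e-06, both by edgeR's quasi-likelihood test). In these contrasts 82.3% of microRNAs passed in old flies and 73.4% in young flies, in either direction.

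With age miR-275-5p did not show the range of its partner. Its log2 fold change was 0.26 ± 0.27 in old against young hemolymph and -0.26 ± 0.17 in old against young body, given as a description, and old and young libraries overlapped in both compartments. At the lowest count of 20 the counting error alone is 22.4% of the value, and between young libraries the CV was 37.2% in hemolymph and 36.3% in body. Without young libraries 1 and 2 the age value was -0.15 in hemolymph and -0.44 in body, and without 3 and 4 it was 0.60 in hemolymph and -0.08 in body. Without young hemolymph library 3 it was 0.78.

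**Figure D2:**
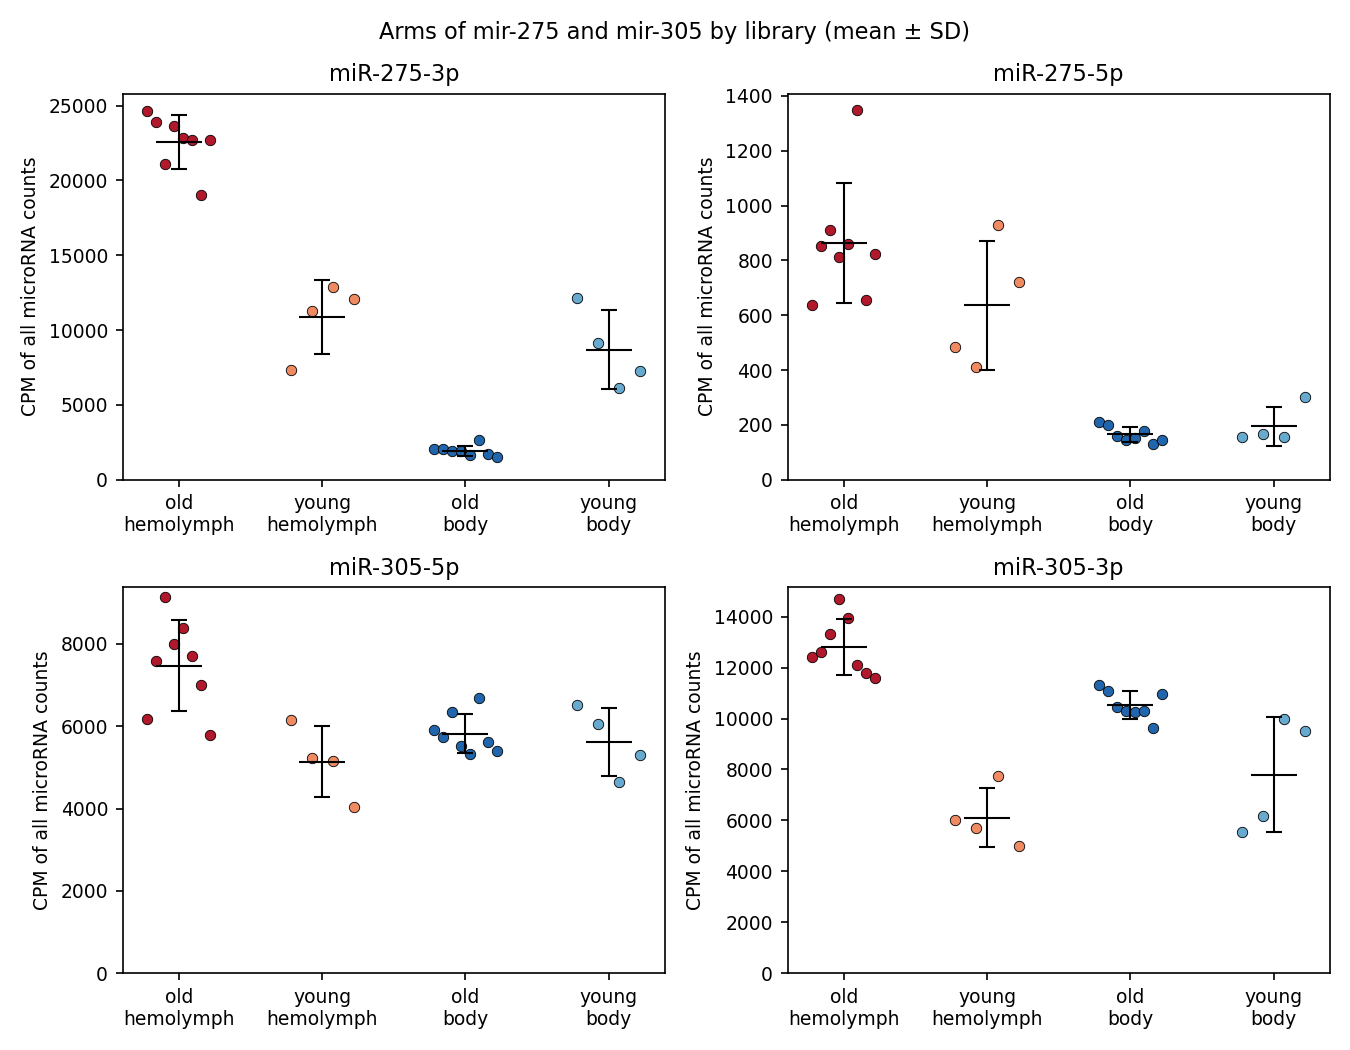
CPM of the 4 arms in each of the 24 libraries (points), by group, with the mean and SD of each group (bars). miR-275-3p lies between 19007 and 24659 CPM in old hemolymph and between 1522 and 2630 CPM in old body, while the miR-305 arms differ far less between the groups.

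miR-305-5p, the arm for which the stem cell role is known, varied least among the groups. Its lowest, median and highest level was 5779, 7653 and 9130 CPM in old hemolymph, and 5328, 5684 and 6692 CPM in old body. Young hemolymph libraries 1 to 4 held 6148, 5222, 5160 and 4030 CPM, and young body libraries 6506, 6055, 4635 and 5310 CPM. By mean the order was old hemolymph, old body, young body, young hemolymph, and each neighbouring pair in that order overlapped.

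The weighted log2 difference of miR-305-5p, hemolymph against body, was 0.14 ± 0.13 (edgeR's quasi-likelihood test, adjusted p = 0.321), with a 95% interval from -0.11 to 0.39. In old flies it was 0.26 ± 0.16 (adjusted p = 0.13) and in young flies -0.10 ± 0.22 (adjusted p = 0.692). Fitted over the old libraries only, the old value was 0.73 and passed (adjusted p = 2.03e-06). With RLE factors over all libraries the old value was -0.017 (adjusted p = 0.904). The young value was -0.16 without young libraries 1 and 2 and -0.19 without 3 and 4. With RLE factors it was -0.54 (adjusted p = 0.00728) and with upper-quartile factors 0.56 (adjusted p = 0.0137), and both passed. Without young 3 and 4 the old value, which comes from the same fit, was 0.29 and passed (adjusted p = 0.0332). The sign depends on the scaling of the libraries: the weighted value was -0.19 with RLE factors (adjusted p = 0.0747) and 0.68 with upper-quartile factors (adjusted p = 7.49e-06). RLE moved the median of all microRNAs tested by -0.36 and upper-quartile scaling by 0.52. As a description, the age value was 0.30 ± 0.19 in hemolymph and -0.02 ± 0.15 in body. It was 0.47 in hemolymph and 0.29 in body without young libraries 1 and 2, and 0.035 in hemolymph and -0.23 in body without 3 and 4.

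miR-305-3p was the more abundant arm of its hairpin in 22 of 24 libraries. It lay lowest, median and highest at 11585, 12505 and 14679 CPM in old hemolymph and at 9644, 10386 and 11307 CPM in old body. In young hemolymph libraries 1 to 4 it had 6006, 5685, 7731 and 4997 CPM, and in young body libraries 5550, 6172, 9964 and 9521 CPM. All old hemolymph libraries were above all old body libraries, as were 27.4% of the microRNAs tested. They were also above all young hemolymph libraries, where 29.1% of microRNAs did not overlap in either direction, while the body ages overlapped.

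The weighted log2 difference of miR-305-3p, hemolymph against body, was 0.04 ± 0.09 (edgeR's quasi-likelihood test, adjusted p = 0.653), with a 95% interval from -0.13 to 0.21. This too turned with the scaling, to -0.31 with RLE factors (adjusted p = 0.0131) and to 0.56 with upper-quartile factors (adjusted p = 4.1e-05). Without scaling factors it was 0.07. It was -0.02 without young libraries 1 and 2 and 0.18 without 3 and 4, neither of which passed. In old flies the difference was 0.17 ± 0.11 (adjusted p = 0.139) in the fit over all 24 libraries. Fitted over the old libraries only, it was 0.64 and passed (adjusted p = 1.24e-07). With RLE factors over all libraries it was -0.10 (adjusted p = 0.516), so the call in old flies depends on the fit and the scaling. In young flies it was -0.21 ± 0.15 (adjusted p = 0.221), and without young libraries 1 and 2 it was -0.66 and passed (adjusted p = 0.00218), while without 3 and 4 it was -0.04. The young value also turned with the scaling. With RLE factors it was -0.72 and passed (adjusted p = 0.00176), and with upper-quartile factors it was 0.37 (adjusted p = 0.0749). As a description, the age value of miR-305-3p was 0.83 ± 0.16 in hemolymph, near the 0.83 of miR-275-3p there, and 0.42 ± 0.13 in body, where miR-275-3p was at -2.25. The body value was 0.17 without young libraries 1 and 2 and 0.73 without 3 and 4.

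**Figure D3:**
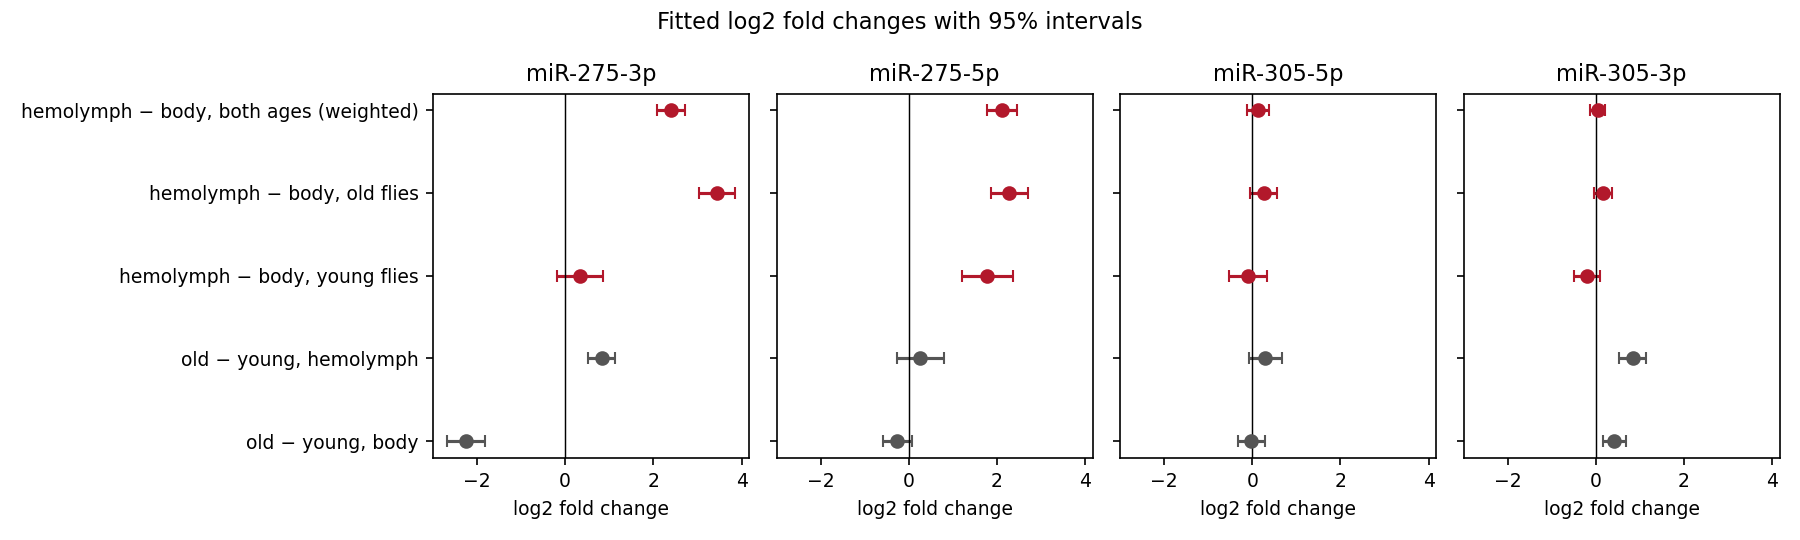
Log2 fold changes of each arm (points) with 95% intervals of 1.96 SE (bars), for hemolymph minus body (red) and for old minus young (grey, description only). Both miR-275 arms are higher in hemolymph in the weighted contrast (2.40 and 2.12), and the miR-305 arms lie near 0 there (0.14 and 0.04).

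Ratios of counts within a library need no scaling between libraries. The ratio of miR-275-3p to miR-275-5p counts was lowest, median and highest at 16.9, 27.8 and 38.7 in old hemolymph and at 9.77, 11.5 and 15.0 in old body. In young hemolymph libraries 1 to 4 it was 15.2, 27.5, 13.9 and 16.7, and in young body libraries 78.6, 55.1, 39.2 and 24.1. The 5p arm thus made up 3.68% ± 0.894 of mir-275 counts in old hemolymph (SD, n = 8), 5.51% ± 1.40 in young hemolymph (n = 4), 7.89% ± 1.10 in old body (n = 8) and 2.38% ± 1.18 (n = 4) in young body.

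Every old body library had a lower ratio than every young body library, a mean log2 difference of -1.94. This was the largest absolute difference among 36 hairpins with at least 100 counts on each arm. The value follows in part from the choice of miR-275-3p and was not tested. Arm ratios did not overlap between old and young body for 16.7% of those hairpins. The difference was -1.39 without young libraries 1 and 2 and -2.48 without 3 and 4, so its size rests partly on which young libraries are used.

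Between compartments the arm ratio of mir-275 went opposite ways at the 2 ages. It was higher in hemolymph by 1.20 (log2) in old flies, without overlap, and lower by a log2 difference of -1.34 in young flies, with overlap. This reversal follows in part from the choice of miR-275-3p, and the single-age differences were not tested. The difference in young flies was -1.01 without young libraries 1 and 2 and -1.67 without 3 and 4. Arm ratios did not overlap between the compartments for 38.9% of the 36 hairpins in old flies. Over both ages the weighted difference was 0.35 (exact permutation test within age, two-sided, p = 0.263, adjusted p = 0.462 over 5 tests), an average of opposite signs. Without young libraries 1 and 2 it was 0.76 (exact permutation p = 0.00995, unadjusted) and without 3 and 4 it was 0.62 (exact permutation p = 0.0673, unadjusted). Leaving out either pair also weights old to young as 8 to 2, which gives the negative young value less weight.

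**Figure D4:**
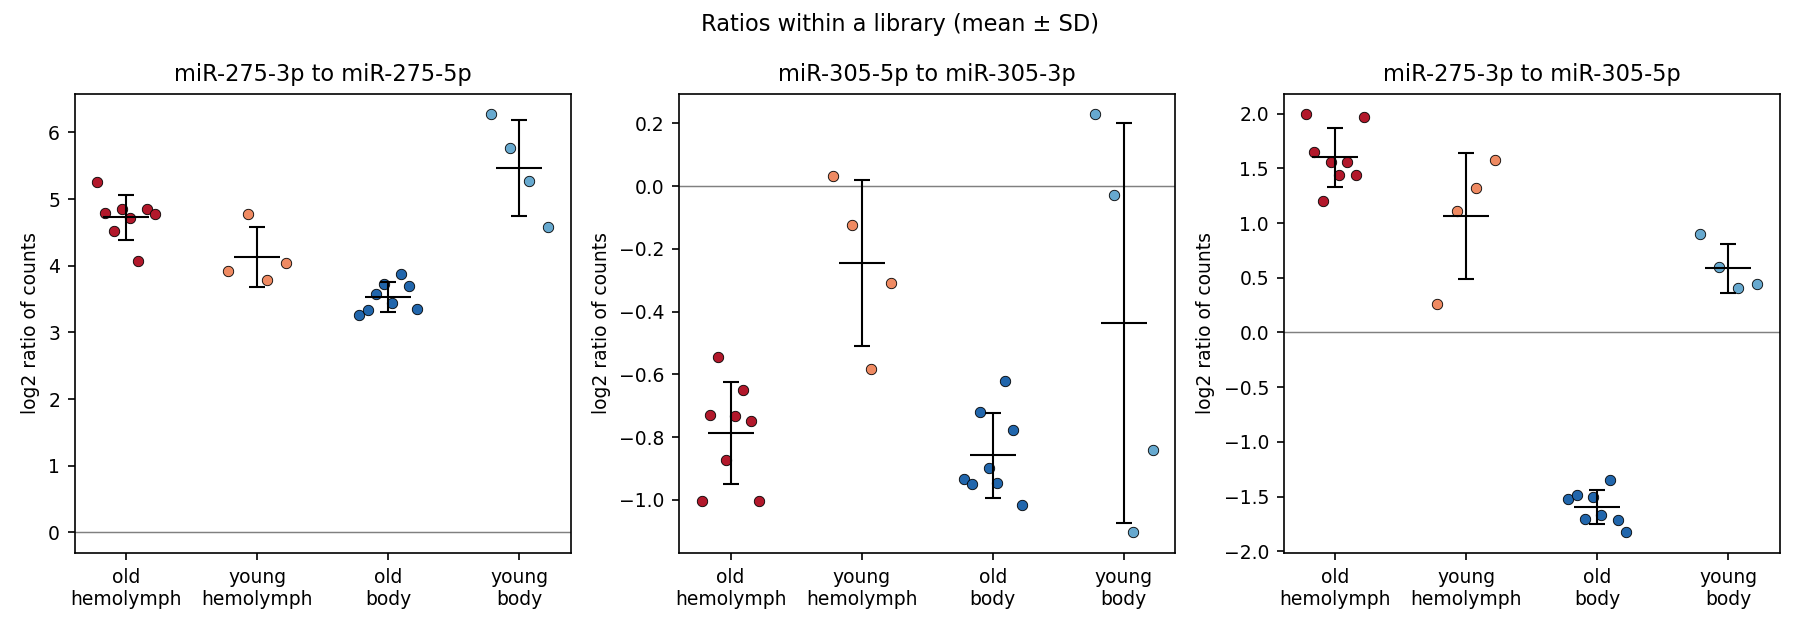
Log2 ratios of counts within each library (points) with the mean and SD of each group (bars), for the arms of mir-275, the arms of mir-305 and miR-275-3p to miR-305-5p. Old body is lowest for the first and the third ratio, and young body spreads most for the second (SD 0.64).

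For mir-305 the ratio of 5p to 3p counts was lowest, median and highest at 0.498, 0.598 and 0.685 in old hemolymph and at 0.494, 0.530 and 0.650 in old body. In young hemolymph libraries 1 to 4 it was 1.02, 0.918, 0.667 and 0.806, and in young body libraries 1.17, 0.981, 0.465 and 0.558. The 3p arm led in all 16 old libraries, and the 5p arm led in library 1 of each young group.

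The compartments did not differ detectably in this ratio. The weighted log2 difference, hemolymph minus body, was 0.11 (exact permutation within age, two-sided, p = 0.37, adjusted p = 0.462). It was 0.07 in old flies (exact p = 0.349, adjusted p = 0.462) and 0.19 in young flies (exact p = 0.629, adjusted p = 0.629, where 4 against 4 libraries cannot give less than 0.0286). Without young libraries 1 and 2 the weighted value was 0.16 and the young value 0.53, and without 3 and 4 they were 0.03 and -0.15, so the sign of the young value depends on the libraries used. With age the log2 ratio was lower by a mean difference of -0.54 in hemolymph and -0.42 in body, as a description. In hemolymph it was -0.34 without young libraries 1 and 2 and -0.74 without 3 and 4.

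The young body libraries with the low ovary sum, 1 and 2, were those with the high mir-305 arm ratios (log2 0.23 and -0.03). Libraries 3 and 4, with the high sum, had -1.10 and -0.84. In young hemolymph the order was the same, 0.03 and -0.12 in libraries 1 and 2 against -0.58 and -0.31 in 3 and 4. In body the age difference of the ratio was 0.11 without young libraries 1 and 2 and -0.96 without 3 and 4, so its sign depends on the libraries used. Young body libraries 1 and 2 also had higher muscle marker sums, 0.447% and 0.359% against 0.225% and 0.247% in 3 and 4. A sum of 4 nervous system microRNAs was 0.680% and 0.511% against 0.327% and 0.358%. Its member miR-210-3p went the other way. In young hemolymph the muscle marker sum did not split this way, and the nervous system sum was at most 0.00797%. The part of ovary RNA, or of RNA from any other tissue, in the mir-305 arm ratio was not tested. In a bulk sample fewer cells of a type and less RNA per cell cannot be told apart.

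**Figure D5:**
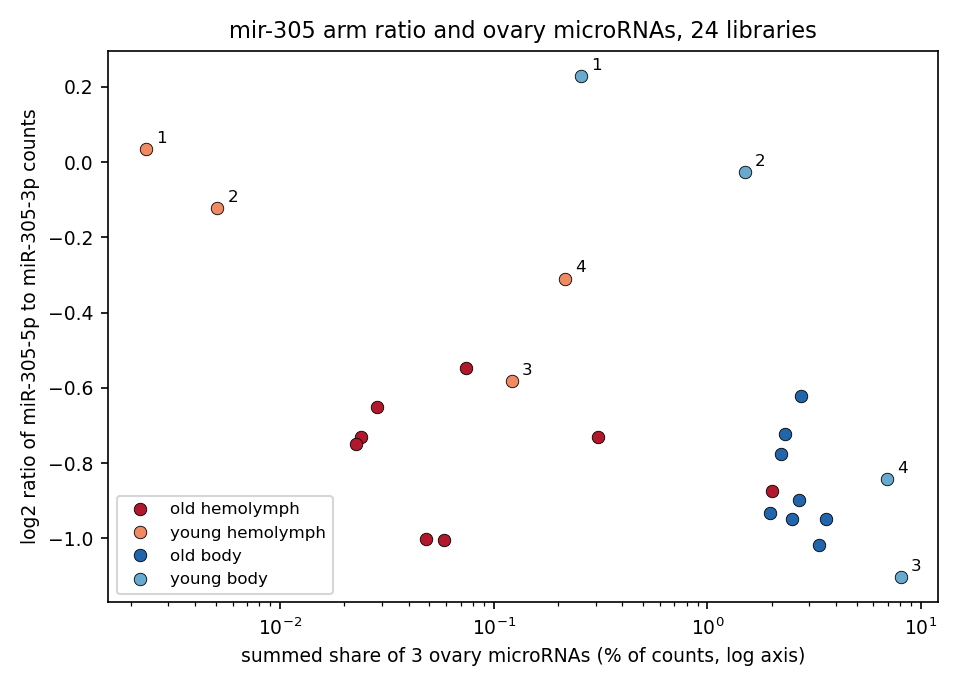
Log2 ratio of miR-305-5p to miR-305-3p counts (y axis) against the summed share of miR-318-3p, miR-989-3p and miR-994-5p (x axis, percent of counts, log axis) in 24 libraries, with the young libraries numbered. Young libraries 1 and 2 lie above 3 and 4 in both compartments, and the old libraries lie between -1.02 and -0.55.

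The leading arm of one hairpin was also set against the known arm of its neighbour. Per count of miR-305-5p there were lowest, median and highest 2.31, 2.95 and 3.99 counts of miR-275-3p in old hemolymph, and 0.281, 0.331 and 0.393 in old body. In young hemolymph libraries 1 to 4 there were 1.19, 2.16, 2.50 and 2.99, and in young body libraries 1.87, 1.51, 1.33 and 1.36. Old body was the only group with less miR-275-3p than miR-305-5p in any library, and it had less in all 8.

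Over both ages the log2 ratio was 2.29 higher in hemolymph than in body (exact permutation within age, two-sided, p = 1.33e-05, adjusted p = 6.66e-05 over 5 tests). The single-age differences were 3.20 in old flies and 0.48 in young flies. They follow in part from the choice of miR-275-3p and were not tested. The young value was 1.02 without young libraries 1 and 2 and -0.07 without 3 and 4. As a description, the age difference was 0.54 in hemolymph and -2.19 in body. The hemolymph value was 0.15 without young libraries 1 and 2, 0.92 without 3 and 4, and 0.27 to 0.71 when 1 library at a time was left out. It also depends on the mir-305 arm taken. The fitted age value in hemolymph was 0.83 for miR-275-3p, 0.83 for miR-305-3p and 0.30 for miR-305-5p. The counting error (SE) of a single log2 ratio was at most 0.113, beside a range of 3.82 over the 24 libraries.

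Other fly clusters also ran apart. Over the 24 libraries the SD of the log2 ratio was 1.43 for miR-275-3p to miR-305-5p. It was 1.92 for miR-277-3p to miR-34-5p, 1.58 for miR-12-5p to miR-283-5p and 0.475 for let-7-5p to miR-125-5p, each pair from a single cluster. Among the 10 pairs computed in 4 clusters, this pair included, the range was 0.475 to 1.92. Only miR-277-3p to miR-34-5p and miR-12-5p to miR-283-5p exceeded 1.43. The lowest counts were 26 for miR-34-5p and 8 for miR-12-5p, against 208 for miR-275-3p and 279 for miR-305-5p. Counting error thus weighs more in those pairs. A spread of this size was not confined to mir-275 and mir-305.

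Over the 24 libraries the levels most like that of miR-275-3p, by Spearman correlation of log2 CPM among 123 microRNAs, were those of miR-34-3p (0.83), miR-284-3p (0.83), miR-275-5p (0.82), miR-980-5p (0.82) and miR-125-5p (0.80). All of these had higher mean CPM in hemolymph than in body at both ages. For miR-305-5p they were miR-278-5p (0.78), miR-2b-2-5p (0.61), miR-33-3p (0.60), miR-274-5p (0.57) and miR-317-3p (0.55). The correlation between the neighbours miR-275-3p and miR-305-5p was 0.45, which placed miR-305-5p 42 from the top, and that between the arms of mir-305 was 0.44. These values are descriptions over libraries that share groups, depth and scaling.

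Of 9 other microRNAs with known roles in gut, fat body or metabolism, all were tested in the weighted contrast by edgeR's quasi-likelihood test. Of these, 5 were higher in hemolymph and 4 lower. Over all 124 tested, 82.3% passed in either direction, 46 as higher (37.1%) and 56 as lower. miR-8-3p, which acts in the fat body on insulin signalling, was at 1.31 ± 0.13 (log2, adjusted p = 1.2e-09), and miR-33-5p, from an intron of the lipid regulator SREBP, at 1.13 ± 0.14 (adjusted p = 1.00e-07). miR-263a-5p was at -1.14 ± 0.26 (adjusted p = 0.000346), and the 3 products of the mir-281 hairpins lay between -2.27 and -2.08. The counts of the mir-281 products are uncertain in their split, as their hairpins are close copies. miR-277-3p, the smallest of the higher ones at 0.41 ± 0.17 (adjusted p = 0.0305), no longer passed with RLE factors (0.09, adjusted p = 0.571). The median of the list was 0.41, the value of miR-277-3p itself, beside -0.31 over all 124 microRNAs. Both miR-275 arms lay above every member of the list.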

How the data were processed

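Small RNA libraries (TruSeq kit, 50 base single reads, per the labels' protocols) were read from 1 table of 476 rows. The deposited counts are whole numbers per mature microRNA and hairpin, not normalized. The deposited RPM values equal each count scaled to a column total of 1000000 to within 0.005 and were not tested. The submitters' processing notes name Bowtie 1.0, edgeR and dm6; the annotation release, trimming and the handling of multiply matching reads are not stated there. Of names listed under several hairpins the row with most counts was kept, which left out 10 rows and none of the 4 arms. As no molecular identifiers are named, counting errors are a lower limit.

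Counts were fitted over all microRNAs with edgeR 4.0.16 in R 4.3.3: filterByExpr at a minimum count of 10, TMM factors, quasi-likelihood F test, Benjamini-Hochberg adjustment, threshold 0.05. TMM sets changes relative to the bulk of microRNAs, so amounts per fly or per volume are not measured. Compartment contrasts used all 24 libraries, and age contrasts the 12 of a compartment. Standard errors were taken as |log2 fold change| divided by the root of F. The fit was also run on simulated counts with a compartment effect in 40 microRNAs and no age effect, from which nothing is read here. Ratios are log2 of counts plus 0.5 each. Exact permutation tests (Python 3.11.15) shuffled compartments within age, adjusted over 5 tests. Alternatives covered RLE, upper-quartile and no factors, no filter, DESeq2 1.42.0, other library sets, pseudocounts of 1 and 2, a replicate block and leaving out each library. Mature and hairpin sequences were not used here.

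The members, lists and tests were chosen with earlier results of these data known. Named microRNAs were the 4 arms, the members of the lists, and by rule the 5 with the highest Spearman correlation (log2 CPM, prior count 2) with miR-275-3p and with miR-305-5p.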

Additional observations from a re-analysis of the deposited data

Results flagged for a closer look

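Of 28 groups of values looked at, 2 held a library far from the others, and chance gives about 1 in 20. Old hemolymph library 6 had 1348 CPM of miR-275-5p (114 counts), where the other old hemolymph libraries had at most 909 CPM. Young body library 4 had 300.5 CPM of miR-275-5p (73 counts), where the other 3 had 155 to 166 CPM. The age difference of miR-275-3p in hemolymph minus that in body, 3.10 on the log2 scale, stands out because every old hemolymph library was above every young one while every old body library was below every young one. It was not tested, since the hairpin pair was chosen for it.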

How the results depend on the processing

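Of 36 reported results, the tested ones that changed direction or their side of the 0.05 threshold, and the untested ones that moved by more than 1 SD between libraries, are given here. The weighted compartment calls of miR-275-3p, miR-275-5p and the miR-275-3p to miR-305-5p ratio held under all alternatives run. RLE factors gave 3.16 for miR-275-3p between compartments in old flies, -0.54 for miR-305-5p and -0.72 for miR-305-3p in young flies, and -0.31 for miR-305-3p weighted. DESeq2 gave 3.17, -0.54, -0.73 and -0.31 for the same 4 values. Of the other sign, but not past the threshold, were with both RLE factors and DESeq2 the values of miR-305-5p weighted (-0.19 with each) and in old flies (-0.017 and -0.018) and of miR-305-3p in old flies (-0.099 and -0.098). Upper-quartile factors gave 3.92 (old) and 0.99 (young) for miR-275-3p, 0.74 (old), 0.56 (young, reversed) and 0.68 (weighted) for miR-305-5p, and 0.66 (old), 0.37 (young, reversed) and 0.56 (weighted) for miR-305-3p. Their age values in hemolymph became 0.54 for miR-305-5p and 1.04 for miR-305-3p. Library size alone gave 0.36 for miR-305-5p and 0.28 for miR-305-3p between compartments in old flies, and 0.54 and 1.07 for their age values in hemolymph. A fit of 1 age only gave 3.90, 0.73 and 0.64 for miR-275-3p, miR-305-5p and miR-305-3p in old flies, and both miR-305 values passed. Of 124 microRNAs, 46 passed as higher and 56 as lower in hemolymph (weighted), against 61 and 95 of 329 without the low-count filter, where miR-305-3p weighted was at -0.039. With RLE factors 41 were higher and 67 lower, and with upper-quartile factors 56 and 49. RLE factors moved the median of all microRNAs by -0.52 in young and -0.27 in old flies, and upper-quartile factors by 0.57 and 0.48. At its lowest count miR-275-5p has a counting error of 22.4%, against at most 6.93% for the other 3 arms.

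Old libraries of code R alone gave age values in hemolymph of 0.54 for miR-305-5p and 1.06 for miR-305-3p, and turned miR-305-3p weighted to -0.15 and the mir-275 arm ratio between compartments to -0.16. Those of code O alone turned miR-305-3p weighted to -0.17 and miR-305-5p weighted to -0.0044, none past the threshold. Either code alone weights old to young as 4 to 4, which gives the negative young values more weight. With code R alone the mir-275 arm ratio was still 1.01 in old flies and -1.34 in young flies. For miR-305-3p the old value was 0.27 with R and 0.195 with O, and the young value -0.57 and -0.54. Without young libraries 1 and 2, miR-275-3p stood at 2.54 for its age difference in hemolymph minus body, and miR-305-3p at -0.66 between compartments in young flies at -0.024 weighted and at 0.17 with age in body. The log2 ratios stood at 0.76 (mir-275 arms, compartments), -1.39 (mir-275 arms, age in body), 0.11 (mir-305 arms, age in body) and 1.02 (miR-275-3p to miR-305-5p, young compartments). Without young libraries 3 and 4 these were 3.65 for miR-275-3p, 0.29 for miR-305-5p between compartments in old flies, 0.035 for miR-305-5p with age in hemolymph, 0.73 for miR-305-3p with age in body, and ratios of -2.48, -0.96 and -0.068 for the last 3, with -0.15 for the mir-305 arms between compartments in young flies. The cause was not tested.

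Leaving out 1 library at a time gave 0.64 to 1.17 for miR-275-3p, 0.11 to 0.78 for miR-275-5p, 0.25 to 0.62 for miR-305-5p and 0.77 to 1.26 for miR-305-3p with age in hemolymph, and 0.24 to 0.60 for miR-305-3p with age in body. Between compartments it gave 0.20 to 0.35 for miR-305-5p in old flies, which passed (0.32 to 0.35) when library 4 of old hemolymph, any of libraries 2, 3 and 6 of old body, or either of libraries 3 and 4 of young body was removed. For miR-305-3p in young flies it gave -0.54 to -0.19, and it passed (-0.54 to -0.43) on removal of library 3 of young hemolymph, library 4 of old hemolymph, or any old body library except 5. Signs turned for miR-305-3p weighted (-0.050 to 0.057), miR-305-5p in young flies (-0.37 to 0.10) and the mir-305 arm ratio in young flies (-0.032 to 0.41), with none past the threshold.

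Numbers shared by body and hemolymph libraries were not taken to pair the samples, since not every correlation of deviations from the group mean was above 0.1. They ran from -0.29 to 0.07 in old pairs. In young pairs they were positive, from 0.09 to 0.55, 3 of 4 libraries correlated best with their own number and the ovary split follows the number in both compartments, a hint of pairing that the labels do not give. With the replicate block the weighted values were 2.45, 2.10, 0.16 and 0.05 for miR-275-3p, miR-275-5p, miR-305-5p and miR-305-3p, and no call changed.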
